A study of Homo sapiens with 8 samples.

Results

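The genes that encode the translation initiation, elongation and release factors were examined in ribosome profiling (Ribo-seq) data of OVCAR3 cells, an established human ovarian carcinoma line. Members were the deposited gene regions whose transcripts belong to a protein-coding symbol that starts with EIF or EEF, together with ETF1, GSPT1, GSPT2, ABCE1, PABPC1 and PABPC4. This rule used names only and gave 74 of 20165 regions, carrying 75 symbols. Ribo-seq sequences the pieces of mRNA that ribosomes shield from nuclease, so a footprint count follows both the amount of an mRNA and its translation, which could not be separated here. In such bulk libraries, fewer cells of a type and less RNA per cell cannot be told apart either.

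Each of the 4 groups had 2 libraries. In the siRNA experiment, OVCAR3 cells were transfected for 48 h with 30 nM control siRNA (siControl) or siRNA against OARD1 (siTARG1), the gene of TARG1, a hydrolase that takes ADP-ribose off modified proteins. In the RACK1 experiment, OVCAR3 cells that carried a doxycycline-inducible pTRIPZ construct against their own RACK1, a protein of the small ribosomal subunit, re-expressed HA-tagged RACK1, as the unchanged protein (RACK1-WT) or as a mutant without its sites of mono-ADP-ribosylation, or MARylation (RACK1-Mut). Both of these groups received 1 µg/ml doxycycline for 48 h, and per the study's methods the lentiviral cells were kept as drug-selected populations, so both carried the knockdown of endogenous RACK1 and both were treated with doxycycline. The experiments differed in cells and in treatment at the same time, and these cannot be told apart.

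Translation begins when eIF2 brings the initiator tRNA to the small ribosomal subunit and eIF3, a complex of many subunits, holds that subunit ready for mRNA. The eIF4 proteins bind the mRNA cap and unwind the 5′ end, and the 4E-BP proteins block the cap-binding protein eIF4E when they are not phosphorylated by mTOR. Stress kinases phosphorylate eIF2, which then traps its exchange factor eIF2B. After the start codon is found, eEF1 delivers aminoacyl-tRNAs, eEF2 moves the ribosome along, eIF5A helps ribosomes that stall in peptide bond formation, and eRF1, eRF3 and ABCE1 end translation and split the ribosome.

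Coding footprints summed to between 3100947 and 6604190 per library, and the members held 2.12% to 2.51% of them. Between 22.1% and 28.7% of the members' footprints in a library lay on EEF1A1 alone. OARD1 had 121 and 69.1 normalized counts in siControl cells and 5.83 and 6.75 in siTARG1 cells. RACK1 had 23330 and 23590 in RACK1-WT cells against 17740 and 17270 in RACK1-Mut cells, and endogenous and re-expressed RACK1 were counted together. The site mutation and the lower RACK1 footprints of RACK1-Mut cells thus cannot be told apart. RACK1 was also lower in siTARG1 cells, at 10040 and 11270 against 12320 and 13030 in siControl cells (log2 fold change -0.25, DESeq2 adjusted p = 0.00297). The 7 ovarian epithelial markers examined (EPCAM, KRT8, KRT18, KRT19, PAX8, MUC16, MSLN) were present in all libraries. Their summed footprint density (coding footprints per kb of coding sequence in every 1000000 coding footprints) was 6165 to 6255 in siControl libraries, 3558 to 3915 in siTARG1 libraries and 6108 to 6453 in the RACK1 libraries, and the part of that shift in the results for siTARG1 was not tested. The lower sum in siTARG1 libraries lay mainly in KRT8 (2280 and 2343 in siControl, 1105 and 1271 in siTARG1) and KRT18 (2582 and 2435 against 1042 and 1185). KRT19 (317 and 315 against 247 and 289) and MUC16 (65.5 and 59.8 against 37.4 and 52.6) were also lower in siTARG1 libraries. EPCAM was higher in siTARG1 libraries, at 768 and 799 against 689 and 705, and so was MSLN, at 41.4 and 37.6 against 35.8 and 34.9, while PAX8 overlapped. Single markers differed between the experiments, although the sums of siControl and RACK1 libraries were close. MSLN was at 34.9 to 41.4 in siRNA and 247 to 279 in RACK1 libraries, and KRT19 at 247 to 317 and 830 to 956. PAX8 was also higher in the RACK1 libraries, while EPCAM and MUC16 (37.4 to 65.5 against 20.8 to 30.0) were lower there. CD3E was at 0 in every library, and PTPRC and DCN were at 0 in all siRNA libraries. COL1A1 and CD14 were found in every library. COL1A1 was at 4.20 to 5.52 in siRNA and 7.09 to 8.51 in RACK1 libraries. CD14 was at 1.26 and 1.43 in siControl, 2.95 and 4.79 in siTARG1 and 5.13 to 7.18 in RACK1 libraries. COL3A1 was at 0.00 to 0.36 and VWF at 0.08 to 0.34. The 7 markers of leukocytes, fibroblasts and endothelium that matched a region summed to 6.28 to 9.06 in the siRNA libraries and 13.9 to 16.3 in the RACK1 libraries.

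In siTARG1 cells, 19 of the 71 member regions tested differed from siControl cells, 7 higher and 12 lower (DESeq2, adjusted p under 0.05). Of all 12056 regions tested, 16.4% were called, 7.18% as higher and 9.19% as lower. The 19 are not all separate genes. EIF3C and EIF3CL, and EIF5A and EIF5AL1, are pairs that share most of their coding sequence. The EIF4EBP3 region, also among the 19, was not assigned to that gene. EIF4A1, EEF1G and EEF1E1 were not called on these coding counts, but their regions were called lower on exon counts. The median log2 fold change was -0.0036 over the members and 0.00 over all regions, both close to 0. The changes lay in particular proteins. The 4E-BP1 gene EIF4EBP1 fell to 24.8% of its control level, 6 of the 13 distinct eIF3 subunits fell, and the cap-complex helper EIF4B, the eIF2 kinase EIF2AK4, the recycling factor ABCE1 and the poly(A)-binding gene PABPC4 rose. With each of the 4 libraries left out in turn, EIF4EBP1, PABPC4, EIF4B and EIF3K were called in all 4 fits, ABCE1 in 2, EIF3B, EIF3J and EIF3C in 1, and EIF2AK4, EIF3H and EIF3I in 0, all with the same direction. EIF3C also lost its call on exon counts and with at least 10 counts required in every library. In RACK1-Mut cells, 0 of 73 member regions tested were called against RACK1-WT by DESeq2 (1 at an unadjusted p under 0.05). With edgeR the count was also 0 (5 at an unadjusted p under 0.05). Of all 12520 regions tested in that comparison, DESeq2 called 0.0799% and edgeR 0.24%, and 1.64% and 7.48% were at an unadjusted p under 0.05. In siTARG1 cells edgeR called 22 members, among 28.8% of all regions.

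**Figure D1:**
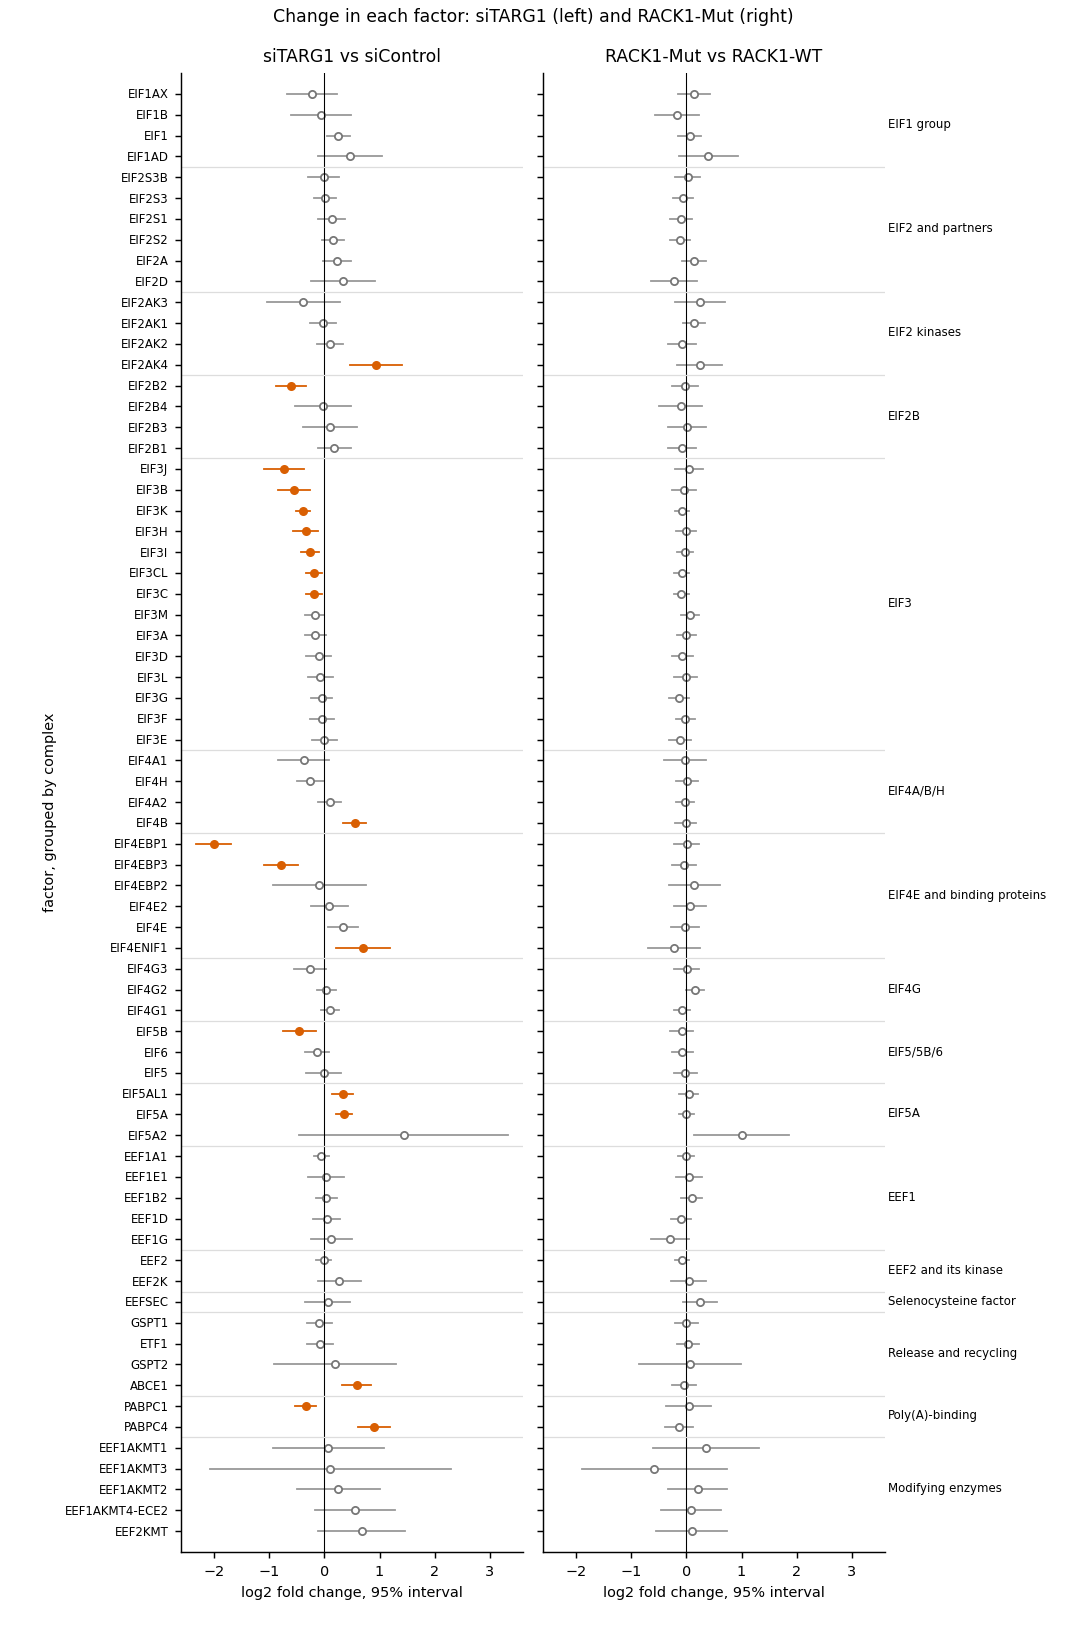
Log2 fold change of each factor's coding footprints in siTARG1 against siControl cells (left) and RACK1-Mut against RACK1-WT cells (right), with 95% intervals, ordered by complex; filled coloured points were called at an adjusted p under 0.05. All filled points lie on the left, where every EIF3 point is at or below 0. EIF1AY is left out, as are regions not tested in the siRNA comparison.

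Among the proteins that bind the cap or control its binding, EIF4EBP1 (chromosome 8, GRCh37 37888052 to 37917883, plus strand) carried the largest change of any called factor. Its normalized counts were 737 and 622 in siControl libraries and 172 and 165 in siTARG1 libraries, so the groups lay far apart. In DESeq2 the fitted change was -2.01 (log2, SE 0.159, adjusted p = 5.97e-34), or 24.8% of the control level. In the RACK1 libraries the same gene had 635 and 659 counts in RACK1-WT and 675 and 621 in RACK1-Mut cells, and the fitted change was 0.00 (95% interval -0.22 to 0.23). The related EIF4EBP2 had a fitted change of -0.10 (SE 0.43) on 35.8 to 54.5 counts per siRNA library, with a 95% interval of -0.94 to 0.75.

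EIF4E itself, the cap-binding protein that 4E-BP1 holds, had 393 and 417 counts in siControl and 527 and 489 in siTARG1 libraries. The groups did not overlap, but the log2 fold change of 0.33 (SE 0.14) was not called by DESeq2 (adjusted p = 0.0866), whereas edgeR called it (adjusted p = 0.0118). EIF4ENIF1, whose product 4E-T carries eIF4E into the nucleus and to processing bodies, rose from 88.8 and 117 to 173 and 159 counts (0.70 on the log2 scale, SE 0.252, adjusted p = 0.0344). The cap-binding relative EIF4E2 had a fitted change of 0.09 (SE 0.172). EIF4E1B and EIF4E3 had too few footprints to be tested in the siRNA libraries.

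The scaffold EIF4G1, which joins eIF4E to eIF3, had 2219 and 2001 counts in siControl and 2295 and 2218 in siTARG1 libraries. Its fitted change was 0.10 (95% interval -0.07 to 0.26), and those of EIF4G2 and EIF4G3 were 0.04 and -0.26, neither called. EIF4B, which stimulates the eIF4A helicase, rose from 696 and 677 to 976 and 1032 counts. The increase was 0.55 on the log2 scale (SE 0.108, adjusted p = 1.13e-05), and in RACK1-Mut cells it was -0.01 (SE 0.0965). EIF4H, another stimulator of the helicase, had 667 and 814 counts in siControl and 618 and 620 in siTARG1 libraries (-0.26, SE 0.128, adjusted p = 0.169).

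The helicase itself could not be read from the coding column. The EIF4A1 region (EIF4A1 at chromosome 17, 7476142 to 7482324, plus strand) joins EIF4A1 with its neighbour SENP3, and only 105 to 292 footprints per library were counted as coding, against 3147 to 7237 over its exons. Its exons hold 1237 nt that the files put in no class (5′ UTR, coding or 3′ UTR), close to the 1221 nt of EIF4A1's coding sequence, and those positions held 94.8% to 96.9% of the region's footprints (widest 95% Wilson interval 94.1% to 95.5%, counting error only). They held 6352 and 4737 raw footprints in siControl, 3881 and 3031 in siTARG1, 6962 and 6050 in RACK1-WT and 3917 and 3703 in RACK1-Mut libraries. With exon counts in place of coding counts, the region fell by 0.74 on the log2 scale in siTARG1 cells (SE 0.0704, DESeq2 adjusted p = 1.32e-23), where 16.4% of all 12299 regions tested on exon counts were called. On coding counts it was -0.38 (SE 0.234, adjusted p = 0.296). In RACK1-Mut cells the exon value was -0.11 (SE 0.0739, not called, where 0.11% of all regions were). EIF4A2, a close relative in a region of its own, had a coding change of 0.10 (SE 0.104, adjusted p = 0.61).

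The same held for EEF1G, the gamma subunit of the eEF1B exchange factor, which shares a region with TUT1. Positions in no class made up 1559 nt there and held 88.5% to 93.8% of the footprints (widest interval 88.3% to 90.8%). On exon counts the region, with TUT1 included, fell by 0.49 (SE 0.0789, adjusted p = 2.13e-08), while the coding column gave 0.13 (SE 0.191, adjusted p = 0.738). The region of EEF1E1, a scaffold protein of the tRNA synthetase complex, also holds BLOC1S5 and TXNDC5, and 48% to 67.1% of its footprints were in no class. It fell by 0.49 on exon counts (SE 0.112, adjusted p = 0.00021), while the coding column gave 0.03 in the opposite direction (SE 0.164, adjusted p = 0.938), and the fall cannot be assigned to EEF1E1 among the genes joined there. EIF4EBP3 lies in a region with 8068 coding nt, of which its own annotated coding sequence is 303 nt and most of the rest belongs to ANKHD1, so the fall of that region (-0.79, SE 0.16, adjusted p = 2.13e-05) was not assigned to EIF4EBP3. EEF1AKMT2 and EIF6 also share their regions with another coding gene, which makes 6 such regions. Of the remaining member regions, EIF4G3 had 7.75% and GSPT1 3.35% of footprints in no class, and no other had over 0.04%.

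**Figure D2:**
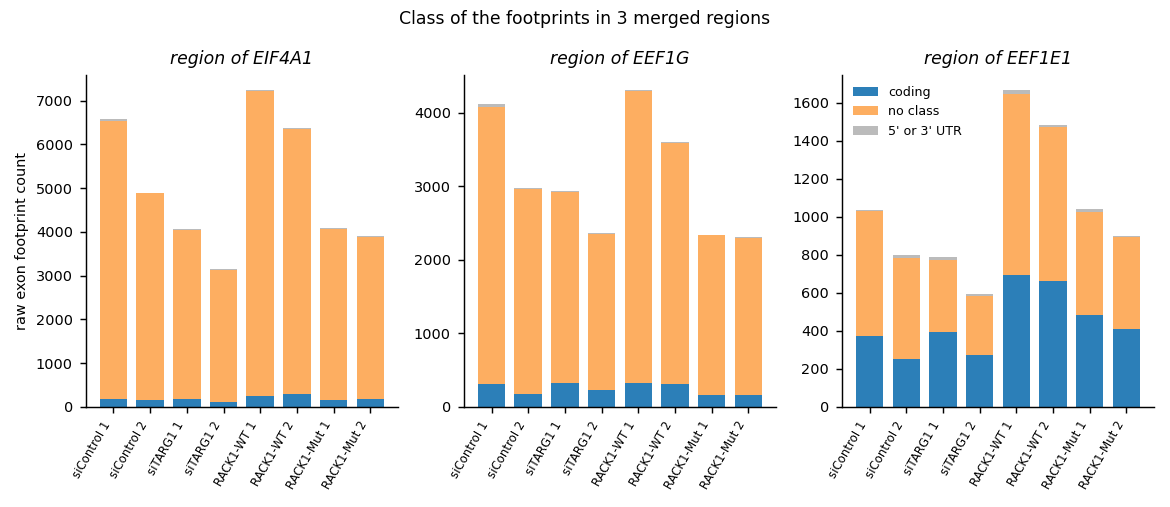
Raw exon footprints in each library for the regions of EIF4A1, EEF1G and EEF1E1, divided into coding positions, UTR positions and positions in no class. The class without a name holds 94.8% to 96.9% of the EIF4A1 bars and 48% to 67.1% of the EEF1E1 bars.

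Part of the eIF3 complex was lower in siTARG1 cells. All 13 distinct subunits had a fitted change below 0 (EIF3C and EIF3CL counted once, because 99.4% of their coding 30-mers are shared and their counts are nearly equal), with a median of -0.18 against 0.00 for all regions, of which 5985 of 12056 were below 0. Of the 13, 6 were called lower and 0 higher, where 9.19% of all regions were called lower and 7.18% higher. Of the 7 not called, EIF3D, EIF3E, EIF3F, EIF3G and EIF3L overlapped between the groups, and siTARG1 replicate 2 lay above both siControl libraries for EIF3E, EIF3F and EIF3L. EIF3J, a loosely bound subunit that helps eIF3 onto the small ribosomal subunit, had 348 and 364 counts in siControl and 243 and 183 in siTARG1 libraries (-0.73 on the log2 scale, SE 0.184, adjusted p = 0.000992). EIF3B, the core subunit known as eIF3η that is also used to mark stress granules, fell from 570 and 486 to 342 and 380 counts (-0.55, SE 0.148, adjusted p = 0.0022). The siTARG1 libraries lay below both siControl libraries for each.

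EIF3K was the most heavily covered subunit per kb of coding sequence and had the tightest replicates for its level, at 5571 and 5557 against 4196 and 4268 counts. It fell by 0.40 on the log2 scale (SE 0.0638, adjusted p = 2.52e-08). The remaining calls were smaller. EIF3H fell by 0.34 (SE 0.112, adjusted p = 0.0172), EIF3I by 0.26 (SE 0.0807, adjusted p = 0.00999) and EIF3C by 0.19 (SE 0.0714, adjusted p = 0.0418). EIF3A, EIF3D, EIF3E, EIF3F, EIF3G, EIF3L and EIF3M were not called, at values between -0.18 and 0.00. The scaffold EIF3A was at -0.16 (95% interval -0.35 to 0.02), and EIF3E at 0.00 (SE 0.116). In RACK1-Mut cells the 13 subunits lay between -0.13 and 0.06, with a median of -0.02 and 0 called.

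Footprint density on the same scale differed widely between subunits of one complex. EIF3K averaged 35.9 times the density of EIF3B, and the ratio of the highest to the lowest eIF3 subunit was between 29.9 and 44.9 in single libraries. EIF3K had 1793 to 2255 in all 8 libraries, followed by EIF3M, EIF3I and EIF3C, whose ranges (532 to 732, 535 to 637 and 412 to 632) overlapped one another. EIF3B was lowest, at 39.95 to 63.2, below EIF3A (74.0 to 81.5), while the ranges of EIF3A and EIF3J (66.7 to 127) overlapped. The 3 subunits of eIF2 lay closer together, but a highest-to-lowest ratio over 3 subunits cannot be set directly against one over 13. EIF2S2 had 241 to 329, and EIF2S1 (165 to 209) and EIF2S3 (173 to 188) overlapped, so that the highest-to-lowest ratio in a library was 1.46 to 1.75. Reads that also match the near-copy EIF2S3B, which shares 62.3% of its 30-mers with EIF2S3, make the last value uncertain.

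**Figure D3:**
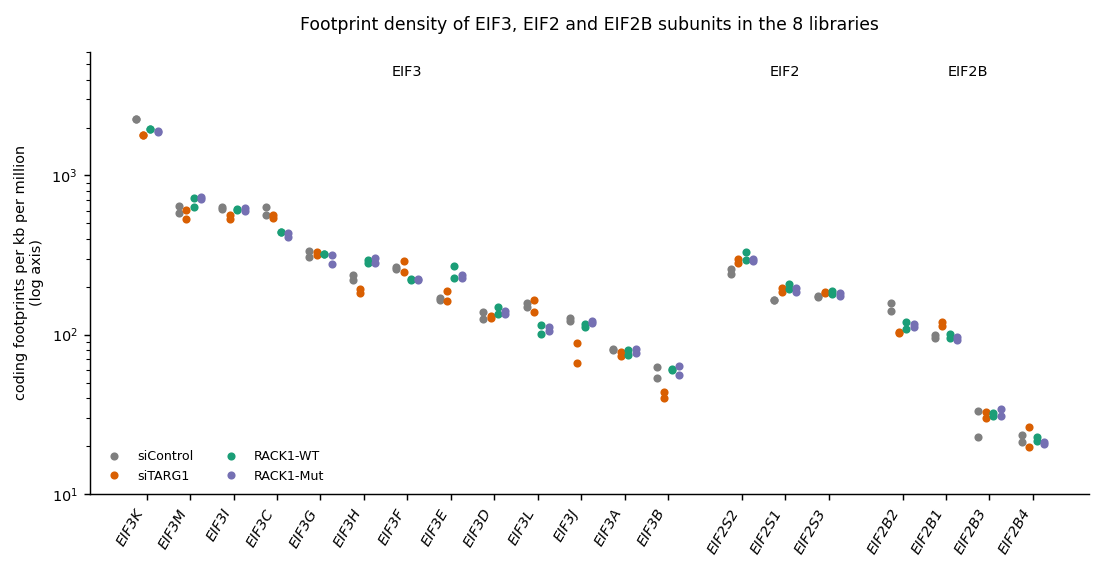
Footprint density (coding footprints per kb in every 1000000, log axis) of the subunits of EIF3, EIF2 and EIF2B in each of the 8 libraries, coloured by group. EIF3K lies between 1793 and 2255 and EIF3B between 39.95 and 63.2, while the 3 EIF2 subunits lie between 165 and 329.

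None of the 6 regions of eIF2 and its partners was called in either comparison. The alpha subunit EIF2S1, which the stress kinases phosphorylate, had 579 and 581 counts in siControl and 649 and 617 in siTARG1 libraries (0.13, SE 0.122, adjusted p = 0.549). EIF2S2 was at 0.15 (SE 0.104) and EIF2S3 at 0.01 (SE 0.103). Of the 4 kinases, EIF2AK4 (GCN2, which senses uncharged tRNA) rose from 94.9 and 94.2 to 176 and 184 counts, by 0.93 on the log2 scale (SE 0.242, adjusted p = 0.00148). EIF2AK1 (HRI) was at -0.02 (SE 0.12), EIF2AK2 (PKR) at 0.11 (SE 0.119) and EIF2AK3 (PERK) at -0.38 (SE 0.342), none of them called. Over the 8 libraries EIF2AK4 had a footprint density of only 5.15 to 10.5 and EIF2AK3 of 4.61 to 8.33, while those of EIF2AK1 and EIF2AK2 were 87.0 to 103 and 68.2 to 142.

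Of the eIF2B subunits named here, the beta subunit EIF2B2 (chromosome 14, 75469624 to 75479069, plus strand) fell from 614 and 546 to 377 and 389 counts. The fitted change was -0.60 (log2, SE 0.139, adjusted p = 0.000243), and EIF2B2 was at -0.02 (SE 0.12) in RACK1-Mut cells. EIF2B1, EIF2B3 and EIF2B4 were at 0.18, 0.10 and -0.03 and were not called. EIF2B2 and EIF2B1 had footprint densities of 102 to 157 and 92.4 to 120 against 22.9 to 33.9 for EIF2B3 and 19.8 to 26.3 for EIF2B4. The catalytic subunit EIF2B5 was not analysed here, nor was EIF4A3.

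Among the factors that join the subunits and clear the start site, EIF5B, the GTPase that brings the large subunit in, fell from 410 and 411 to 305 and 294 counts (-0.46, SE 0.154, adjusted p = 0.022). EIF5, the GTPase activator of eIF2, was at -0.02 (SE 0.164), and EIF6, which keeps free subunits apart, at -0.14 (SE 0.11). In the EIF1 group, which sets start codon choice, EIF1 had 861 and 925 counts in siControl and 991 and 1141 in siTARG1 libraries. The change of 0.25 (SE 0.11) missed the threshold in DESeq2 (adjusted p = 0.0947) and passed it in edgeR (adjusted p = 0.0217).

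None of the eEF1 and eEF2 genes was called on coding counts. EEF1A1, which carries aminoacyl-tRNA and was the most heavily covered factor at a footprint density of 3383 to 5198, had 24750 and 24380 counts in siControl and 21780 and 25540 in siTARG1 libraries. Its change was -0.05 (95% interval -0.20 to 0.09), and that of the translocase EEF2 was -0.01 (95% interval -0.15 to 0.13). EEF2K, the kinase that inactivates eEF2, had 179 and 175 against 221 and 207 counts (0.27, SE 0.202, adjusted p = 0.412). EIF5A, by contrast, rose from 2180 and 2127 to 2778 and 2756 counts, by 0.36 on the log2 scale (SE 0.0749, adjusted p = 3.04e-05), against 0.00 (SE 0.0722) in RACK1-Mut cells. The near-copy EIF5AL1 rose by a like amount (0.33, SE 0.0948, adjusted p = 0.00515), but 77.3% of its coding 30-mers occur in EIF5A, so the pair may rest on the same reads. EIF5A2 had 2.64 to 13.3 counts in the siRNA libraries and was not called. In RACK1-Mut cells it had 44.1 and 43.5 counts against 23.2 and 20.4 (1.01, SE 0.439, adjusted p = 1.00), the member at an unadjusted p under 0.05 mentioned above.

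In termination and recycling, the release factors ETF1 (eRF1) and GSPT1 (eRF3a) were at -0.08 (SE 0.119) and -0.09 (SE 0.114). ABCE1, the ATPase that splits ribosomes after termination, rose from 420 and 415 to 584 and 669 counts (0.58, SE 0.136, adjusted p = 0.000295). The poly(A)-binding proteins moved apart. PABPC1, the main cytoplasmic form, had 1650 and 1633 counts in siControl and 1212 and 1380 in siTARG1 libraries (-0.34, SE 0.0944, adjusted p = 0.00305), and 28.6% of its 30-mers occur in PABPC3. PABPC4, an inducible form, rose from 308 and 275 to 557 and 536 counts (0.90, SE 0.147, adjusted p = 3.2e-08). In RACK1-Mut cells the values were 0.04 (SE 0.206) and -0.14 (SE 0.13).

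**Figure D4:**
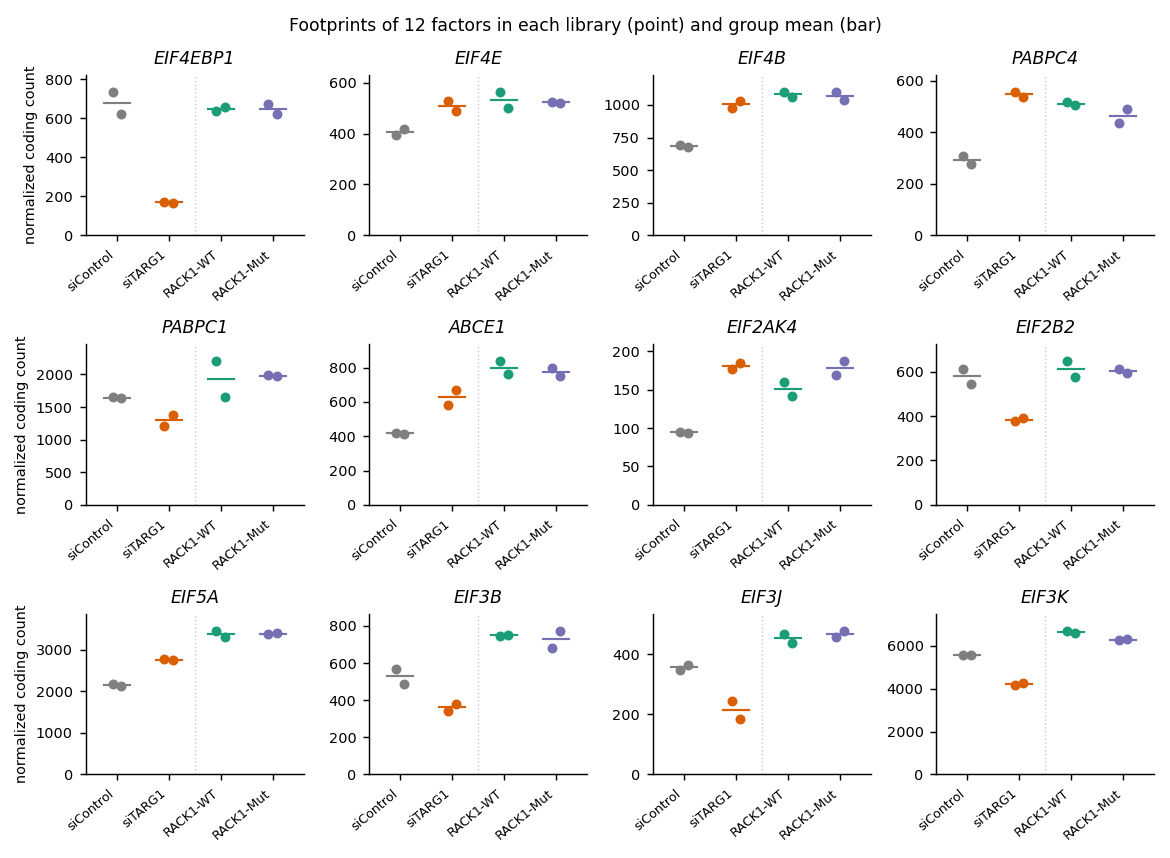
Normalized coding counts of 12 factors in each library (points) with group means (bars), normalized within each experiment. EIF4EBP1 sits at 165 and 172 in siTARG1 cells against 622 and 737 in siControl cells, and between 621 and 675 in the RACK1 libraries.

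The test of the difference, (siTARG1 minus siControl) minus (RACK1-Mut minus RACK1-WT), was fitted over all 8 libraries. It called 11 of 73 member regions, 5 higher and 6 lower, while 12.3% of all 12955 regions tested were called, 5.43% higher and 6.91% lower. EIF4EBP1 differed by -2.01 (SE 0.18, adjusted p = 3.18e-26), PABPC4 by 1.05 (SE 0.177, adjusted p = 1.52e-07), EIF4B by 0.57 (SE 0.129, adjusted p = 0.000271) and ABCE1 by 0.63 (SE 0.159, adjusted p = 0.00113). EIF3K, EIF3J and EIF3B were among the lower calls. The rises of EIF2AK4 (difference 0.70, SE 0.283, adjusted p = 0.0787) and the falls of EIF3H, EIF3I, EIF3C, EIF5B and PABPC1 were not shown to differ between the experiments.

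Many of these genes belong to the class of mRNAs with a 5′ terminal oligopyrimidine (TOP) tract, a C followed by a run of pyrimidines at the very start, whose translation is held down by LARP1 and 4E-BPs when mTOR is off. Start sequences were read from RefSeq windows (GRCh38.p14) and placed on GRCh37 by exact match. A C at the annotated start followed by at least 4 more C or T, on the gene's own strand, was found in 13 of the 58 members with a window (22.4%) and in 5.14% of all 27305 genes with one. Shown are 10 bases before and 20 bases from the start, with the tract in capitals, for factors that did not change (EEF1A1, EEF2, EIF3F), rose (EIF4B) or fell (EIF3K), and then for factors without a tract that fell (EIF3B, EIF3J) or rose (ABCE1, EIF5A):
EEF1A1: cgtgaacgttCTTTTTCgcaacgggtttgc
EEF2: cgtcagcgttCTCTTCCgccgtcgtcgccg
EIF3F: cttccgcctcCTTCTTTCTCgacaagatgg
EIF4B: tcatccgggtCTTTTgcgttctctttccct
EIF3K: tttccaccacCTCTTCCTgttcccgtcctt
EIF3B: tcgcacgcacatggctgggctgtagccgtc
EIF3J: ccgccgtgctaactcctcgctagctctccc
ABCE1: gcggctgggcaccgccattttggccggtgg
EIF5A: tgggaacccgaccacactagcgcgctagaa

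On GRCh37 these windows lie at chr6:74230736-74230765 (EEF1A1, minus strand), chr19:3985442-3985471 (EEF2, minus), chr11:8008874-8008903 (EIF3F, plus), chr12:53400230-53400259 (EIF4B, plus) and chr19:39109818-39109847 (EIF3K, plus). Those without a tract lie at chr7:2394452-2394481 (EIF3B), chr15:44829335-44829364 (EIF3J), chr4:146019453-146019482 (ABCE1) and chr17:7210308-7210337 (EIF5A), all on the plus strand. The 13 members with a tract did not move together in siTARG1 cells. EIF4B was called higher, EIF3K lower, and the median log2 fold change was -0.01, against 0.04 for the 43 tested members with a window and no tract. By the list of known TOP mRNAs among the factors (EEF1A1, EEF1B2, EEF1D, EEF1G, EEF2, EIF3E, EIF3F, EIF3H, EIF3L, EIF4B and PABPC1), 1 of 11 was called higher and 2 lower, with a median of -0.01, where 7.18% and 9.19% of all regions were called. EEF1G enters there at its coding value. On exon counts its region, which also holds TUT1, was a further lower call, and the median of the list was -0.04. In RACK1-Mut cells the median of the list on coding counts was also -0.01, with 0 called. The list and the start windows overlap only in part. EEF1D, EEF1G, EIF3E, EIF3H, EIF3L and PABPC1 are on the list but not among the 13 members with a tract.

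Among all genes, 2 sequence words are common in the 3′ UTRs of those called in siTARG1 cells, and they were looked up for the factors. A 7-mer of TGAACATA lay in the 3′ UTR (transcript strand, longest coding transcript) of 3 of the 12 member regions called lower, EIF3B, EIF3J and EIF3H, as against 37% of all regions called lower and 18.2% of the 11772 regions with a 3′ UTR. A 7-mer of TGAATATA lay in 2 of the 7 called higher, ABCE1 and EIF5AL1, as against 45.9% of all regions called higher and 24.3% overall. The words also lay in the opposite class, TGAACATA in EIF5AL1 among those called higher and TGAATATA in EIF3H among those called lower. EIF4EBP1, EIF2B2, EIF3K, PABPC4, EIF4B and EIF2AK4 held neither word. EIF5A also held neither, and EIF5AL1 shares 77.3% of its coding 30-mers with it, so the call of EIF5AL1 may rest on reads of EIF5A. Called members with a word had 3′ UTRs of 556 nt (EIF3B) to 3326 nt (EIF5AL1). Those without had 34 to 851 nt, apart from EIF2B2 at 3178 nt. The shares take no account of length. The words were taken up with the calls of these data known, so the shares among all called regions are no independent reference. The part of these words in the changes was not tested.

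Footprints in the 5′ UTR mark ribosomes ahead of the main coding sequence. Over the 68 members outside joined regions, 5′ UTR footprints made up 1.66% and 1.64% of 5′ UTR plus coding footprints in siControl and 1.64% and 1.69% in siTARG1 libraries, a difference of 0.0209 percentage points (exact two-sided permutation p = 0.67). In RACK1-WT libraries the share was 1.47% and 1.83%, and in RACK1-Mut libraries 1.52% and 1.69% (difference -0.0471 points, exact two-sided permutation p = 1.0). With 2 libraries against 2 this test cannot go below 0.33. The members' share lay under that of all regions, which was 3.88% to 4.42%.

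Of the 57 members with at least 50 such footprints in every library, 8 had a median 5′ UTR share over 5%, namely EIF5, EIF4G2, EIF1AD, EEF2K, EIF1B, EIF1AX, PABPC4 and EIF1. EIF5, whose mRNA carries upstream reading frames, had the highest, at 33.4% and 31.0% in siControl, 26.7% and 24.3% in siTARG1, 22.3% and 20.2% in RACK1-WT and 22.8% and 22.2% in RACK1-Mut libraries (widest 95% Wilson interval 27.1% to 35.3%, counting error only). EIF4G2, which is known to start at a non-AUG codon, had 13.1% to 20% over the 8 libraries. EIF1 had 8.15% and 7.84% in siControl and 4.80% and 4.16% in siTARG1 libraries, and EEF2K had 8.93% and 9.26% against 14.8% and 17.1%. A DESeq2 test of the 5′ UTR to coding ratio called none of these. It called 0 of 43 members in siTARG1 cells (2 at an unadjusted p under 0.05; with edgeR 0 called and 8 unadjusted) and 0 of 49 in RACK1-Mut cells (0 unadjusted), and 0.0% of all 5334 and 6116 regions tested. Of these regions, 105 of 5334 and 40 of 6116 were at an unadjusted p under 0.05 in DESeq2. No such count over all regions is given for edgeR, so its 8 members have no reference here. The log2 change of the ratio was -0.40 (SE 0.571) for EIF5, -0.82 (SE 0.568) for EIF1 and 1.00 (SE 0.688) for EEF2K in siTARG1 cells, and none passed the test. With SEs of this size, the lack of a call does not show that a ratio was unchanged. For EIF1 the Wilson intervals of both siControl libraries (6.66% to 9.95% and 6.21% to 9.85%) lay above those of both siTARG1 libraries (3.74% to 6.12% and 3.11% to 5.53%), which cover counting error only.

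**Figure D5:**
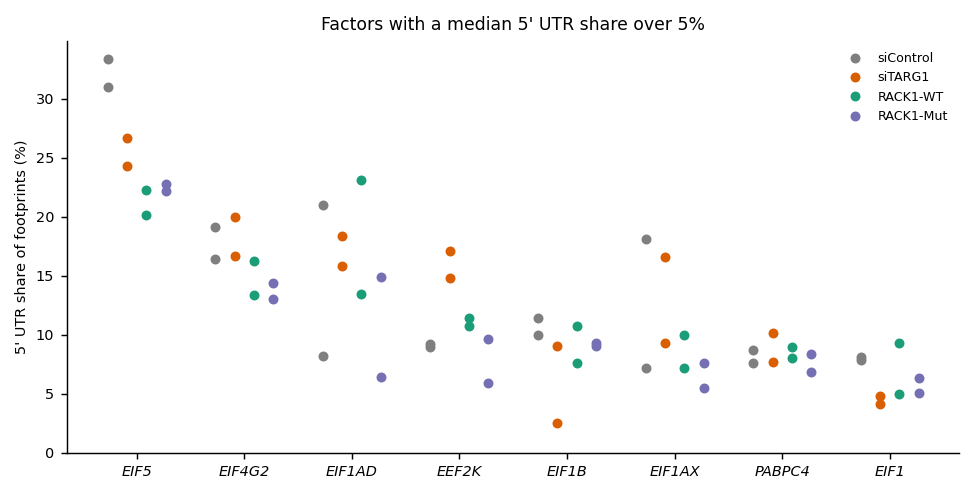
Share of 5′ UTR footprints among 5′ UTR and coding footprints for the 8 factors with a median above 5%, one point per library. EIF5 lies between 20.2% and 33.4% in all libraries, and the siTARG1 points of EEF2K (14.8% and 17.1%) lie above both siControl points.

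Levels also differed between the experiments, among the members and among all regions, and cells and treatment differed together there. Of 72 members, 15 had all 4 RACK1 libraries above all 4 siRNA libraries (coding footprints as a share of the library) and 12 had them all below, while of all 12955 regions 20.7% lay above and 19.2% below, or 39.8% together. The isoform EEF1A2 was the clearest case among the elongation factors, at a footprint density of 0.00 to 1.02 in siRNA libraries and 7.74 to 13.8 in RACK1 libraries. EIF4A2 had 238 to 298 against 483 to 528, and EIF2AK2 112 to 142 against 68.2 to 84.0.

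Of 48 partners and modifiers of the factors listed by name, 45 matched a region. In siTARG1 cells 3 were called higher and 7 lower, where 7.18% and 9.19% of all regions were, and in RACK1-Mut cells 0, where 0.0799% of all regions were. PDCD4, an inhibitor of eIF4A, rose by 0.88 (SE 0.145, adjusted p = 5.54e-08), as did the helicase DHX29 by 0.60 (SE 0.196, adjusted p = 0.0175) and the mitochondrial elongation factor GFM1 by 0.39 (SE 0.118, adjusted p = 0.00795). BZW1, a mimic of eIF5, fell by 1.01 (SE 0.114, adjusted p = 7.77e-17), the helicase DDX3X by 0.44 (SE 0.109, adjusted p = 0.000865) and MKNK2, a kinase of eIF4E, by 0.40 (SE 0.108, adjusted p = 0.00272). DHPS, which makes the hypusine residue of eIF5A, fell by 0.61 (SE 0.191, adjusted p = 0.0127) while EIF5A rose. NCBP2, MCTS1 and SECISBP2 were the other lower calls. LARP1, the TOP-binding protein, was at 0.01 (SE 0.106). All 6 partners of the eIF2 kinases and phosphatase had fitted changes above 0, as did 6071 of all 12056 regions, with a median of 0.36, and none was called.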

How the data were processed

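With Plastid the authors counted footprints in exons and in the 5′ UTR, coding and 3′ UTR positions of gene regions (overlapping genes joined), and deposited raw counts. The build was GRCh37 (hg19), with annotation from GENCODE release 24. Reads of 26 to 36 nt were placed 14 nt from the 5′ end in the headers, whereas the methods give 12 nt from the 3′ end, and this was not resolved. Reads were filtered with Bowtie 1.1.2 and aligned to transcripts with TopHat2 2.1.1, per the submitters' processing notes and the methods, with up to 64 hits per read, so near-copies share reads. The linkers carried molecular identifiers meant for removing duplicates, and these were cut from the reads by the authors' script. Whether duplicates were collapsed in these counts was not checked here. The deposited RPKM values of the authors were not used.

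Symbols came from GENCODE release 44 lifted to GRCh37 by transcript identifier, with 19612 of 20165 regions named. Each comparison was fitted over all regions with DESeq2 1.42.0 (R 4.3.3) on coding counts of its 4 libraries, for regions with at least 10 counts in sum, with a call at a Benjamini-Hochberg adjusted p under 0.05. The difference was fitted over 8 libraries. Normalized counts are divided by the size factors of a comparison. Alternatives were edgeR 4.0.16, TMM factors, other filters, exon counts, a replicate block, all libraries together, other thresholds, regions of 1 symbol only, and leaving out each library. The test of the 5′ UTR to coding ratio was added after seeing the data. The scripts were tested on simulated data.

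The members and lists were chosen with earlier results of these data known. Named factors are those called, with a mean of at least 50 normalized counts, and a core of factors listed by name. Per the methods the samples are biological replicates. Replicates differed by more than sampling noise (mean chi-square per region 1.68 to 3.13). No level of EIF1AY is given. RNA-seq was not used here.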

Additional observations from a re-analysis of the deposited data

Results flagged for a closer look

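The change in siTARG1 cells and that in RACK1-Mut cells differed, by the DESeq2 test of the difference itself, for 11 of 73 member regions. Of all 12955 regions tested, 12.3% were called. On the log2 scale the difference was -2.01 for EIF4EBP1, -0.77 for EIF3J, -0.75 for the ANKHD1 and EIF4EBP3 region, -0.58 for EIF2B2, -0.51 for EIF3B and -0.31 for EIF3K. It was 1.05 for PABPC4, 0.95 for EIF4ENIF1, 0.63 for ABCE1, 0.57 for EIF4B and 0.37 for EIF5A. In all 11 the size of the siTARG1 change was larger than that of the RACK1-Mut change, which was called for none of them. Cells and treatment also differed between the experiments, and these cannot be told apart.

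Footprints at exon positions that the files place in no class were not part of the coding comparisons. In the library with the lowest share they made up 94.8% of the exon footprints of the EIF4A1 region, 88.5% of those of EEF1G and 48% of those of EEF1E1. On exon counts these regions were lower in siTARG1 cells by -0.74, -0.49 and -0.49 (log2).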

How the results depend on the processing

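The count of 19 members called in siTARG1 cells (1974 of all regions) was 12 with a replicate block (1125 of all regions), all of them among the 19. It was 1 (EIF4EBP1) where a log2 fold change of at least 1 was tested (70 of all regions). It was 17 to 22 under the other planned settings (1856 to 3470 of all regions), with 22 in edgeR (3470 of all regions). Leaving out 1 library gave 5 (siControl replicate 1), 11 (siControl replicate 2), 6 (siTARG1 replicate 1) and 8 (siTARG1 replicate 2), where the lone library is assumed to vary like the other group. EIF4EBP1, PABPC4, EIF4B and EIF3K were called in all 4 of these fits, and EIF2AK4, EIF3H, EIF3I, EIF5B, EIF4ENIF1 and EIF5AL1 in none. Replicate numbers are shared only as names (correlation over regions of the deviations of same-numbered libraries 0.03 for siRNA and 0.083 for RACK1). Under the replicate block EIF3I, EIF3H, EIF3C, EIF3CL, EIF5B, EIF4ENIF1 and EIF5AL1 lost their calls. PABPC1 lost its call in the fit of all 8 libraries. EIF3C, and its copy EIF3CL, also lost it on exon counts and with 10 counts required in every library. In the fit of all libraries and in edgeR, EIF4E gained a call, and in edgeR so did EIF1 and EIF4H. The count for RACK1-Mut was 0 throughout. The count for the difference, 11 (1598 of all regions), was 17 in edgeR (2695 of all regions) and 8 with the replicate block (878 of all regions). The EEF1G region turned from 0.13 to -0.49 on exon counts. The 5′ UTR share difference of 0.0209 points ranged from -0.0039 (without siTARG1 replicate 2) to 0.0456, and that of -0.0471 points from -0.2266 to 0.1323 (without RACK1-WT replicate 2; 0.0364 without RACK1-Mut replicate 1). The EIF3K to EIF3B density ratio of 35.9 was 20.4 per kb of exon. No named value called on coding counts changed sign. The causes were not tested.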
